A study of Homo sapiens with 4 samples.

Results

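The basal and stress keratins are 8 genes of squamous epithelium, KRT5, KRT14, KRT15, KRT16, KRT17, KRT6A, KRT6B and KRT6C. They were taken by gene symbol, each had 1 row of the deposited table, and together they are 8 of 15073 named genes. The platform annotation named 5 of these rows, and KRT6A, KRT6B and KRT17 were named through the RefSeq accession that identifies the row. The RNA came from CAL-27, a human cell line established from a squamous cell carcinoma of the tongue, and was hybridised to 1-colour arrays whose probes cover both mRNAs and long non-coding RNAs. One group of 2 arrays measured cisplatin-resistant CAL-27 cells, made by exposing the line to cisplatin, a platinum compound that crosslinks DNA, at concentrations rising from 1e-07 M to 1e-05 M. The other 2 arrays measured parental CAL-27 cells, and both lines were grown in DMEM with fetal bovine serum. The labels do not say whether the resistant line is 1 clone or whether cisplatin was present when RNA was taken, and its passage history relative to the parental cells was not given in the sources used here.

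Keratins form the intermediate filaments of epithelial cells. Each filament is built from pairs of 1 type I and 1 type II keratin, so that a cell makes keratins of both types. Dividing basal cells of stratified squamous epithelium use KRT5 with KRT14, and KRT15 marks part of the basal layer. KRT6A, KRT6B, KRT6C, KRT16 and KRT17 are called stress or wound keratins, since injured and hyperproliferative epidermis induces them. In oral mucosa several of them are also made constitutively, and squamous carcinomas commonly keep both sets.

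Of the 8 keratins, 6 fell in the resistant cells, 0 rose and 2 did not pass the test. KRT6A was 120-fold lower in the resistant arrays, KRT14 77.5-fold, KRT16 37.6-fold, KRT6B 14.3-fold and KRT15 10.7-fold. KRT6C also fell, by a fold that rests on dim values and is given with its range where the gene is described. KRT5 and KRT17 stayed among the brightest rows of every array. The test was limma's moderated test with Benjamini-Hochberg adjustment over all named genes and a threshold of 0.05, and every difference is a log2 value, resistant minus parental. Over all named genes 2.83% were lower and 3.26% higher by this test. The median difference was -4.17 over the 8 keratins and -0.03 over all named genes. Both resistant arrays lay below both parental arrays in 8 of 8 keratins, a pattern that 31.0% of named genes share. When every row was tested together, 0 of the 8 keratin rows passed (smallest adjusted p = 0.0606), although 6 were lower at an unadjusted p under 0.05, and limma called 0% of all rows lower. Leaving out any 1 of the 4 arrays also left 0 keratins past the threshold in the test by gene, which then called 0% of named genes. With a prior variance that follows intensity it left 6 to 7, while 7.28% to 9.56% of named genes were lower. With that prior, 6 of the 8 rows passed in the test over all rows, which then called 4.48% of rows lower.

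**Figure D1:**
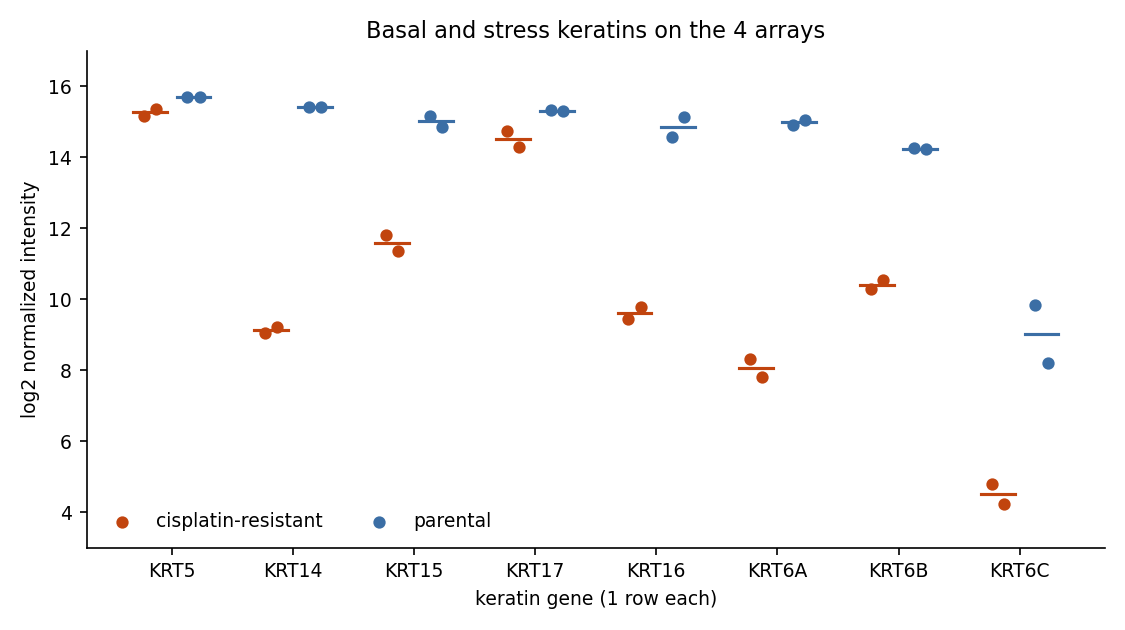
Log2 normalized intensity of each basal or stress keratin on each array, with 2 cisplatin-resistant arrays on the left and 2 parental arrays on the right of each gene; bars are group means. The resistant points lie below the parental points for all 8 genes, narrowly so for KRT5 and KRT17.

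Values were deposited as normalized intensities on a linear scale, and the median of an array lay between 141.2 and 149.9. The highest intensity of an array lay between 62616 and 65071. The table holds no detection calls, so a fold that rests on a dim row is nominal. The series calls the arrays of a group biological replicates, so an error here starts from the spread between 2 arrays of a group. For a single gene limma then moves this error toward a value shared by all named genes. The SE of KRT14 was 0.19 with limma and 0.09 unmoderated, and that of KRT6C was 0.64 with limma and 0.87 unmoderated. RNA from a whole culture cannot tell fewer cells that make a keratin from less keratin RNA per cell. Keratins of 1 subfamily are near-identical in sequence, as KRT6A, KRT6B and KRT6C are, and KRT14, KRT16 and KRT17 are close relatives. Probe sequences were not used here, so signal shared between rows of either set was not tested. Tests compare each gene with itself between groups, and a percentile or an intensity only places a row on its own array.

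Only KRT5 had an entry in the RefSeq promoter table, so its sequence is the 1 that can be shown for the 8 genes. It is the promoter of the keratin with the smallest difference, at chr12:52520345-52520644 of build GRCh38.p14 on the minus strand, printed 5′ to 3′ from 250 bases before the start site to 50 bases into the gene. Capitals mark the single motif match that was found.

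KRT5: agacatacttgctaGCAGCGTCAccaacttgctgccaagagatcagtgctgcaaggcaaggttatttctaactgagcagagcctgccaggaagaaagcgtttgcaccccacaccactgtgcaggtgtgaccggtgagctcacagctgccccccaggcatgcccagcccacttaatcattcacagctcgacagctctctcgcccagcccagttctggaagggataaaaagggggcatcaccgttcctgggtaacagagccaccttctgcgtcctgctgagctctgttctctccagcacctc

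Searches on both strands for a TATA box (TATAAA), an AP-1 site (TGANTCA), an AP-2 site (GCCNNNGGC) and a STAT site (TTCNNNGAA) found 0 exact matches in this window. Near matches were not counted, such as the GATAAA in this window, which differs from TATAAA in 1 letter. The search therefore does not show that the promoter lacks a TATA-like element. The antioxidant-type element of NRF2 (TGACNNNGC) matched at 1 place on the opposite strand, starting at position -236 from the start site. Among the 35116 promoters of the table, 13.3% hold that element, 11.5% the TATA box, 7.7% the AP-1 site, 23.2% the AP-2 site and 7.7% the STAT site. No motif overlapped another.

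Among the basal keratins, KRT14 and KRT15 fell and KRT5 did not pass. KRT14, the type I partner of KRT5 in basal cells, had intensities of 529.6 and 601.3 in the resistant arrays, against 43329.7 and 44117.7 in the parental arrays. The 2 arrays of each group nearly coincided, and the groups were far apart. The log2 difference was -6.28 ± 0.19 (± SE, 2 arrays in each group; adjusted p = 0.0165), with a 95% confidence interval of -6.80 to -5.75. Ordered from the most negative difference, KRT14 ranked 10 among the named genes.

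KRT15, a type I keratin of basal cells that is often low where epidermis is activated, had intensities of 3595.1 and 2648.9 in the resistant arrays and 36591.1 and 29671.8 in the parental arrays. It remained a bright row after the fall, at percentiles 92.4 and 90.3 of all rows in the resistant arrays, against 99.5 and 99.3 in the parental arrays. The log2 difference was -3.42 ± 0.26 (adjusted p = 0.0194). The gaps between replicates, 0.44 in the resistant and 0.30 in the parental arrays, were small beside it.

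KRT5, the type II keratin of basal cells, had intensities of 36686.2 and 42289.5 in the resistant arrays, against 53291.8 and 53619.6 in the parental arrays. Both resistant values were the lower ones, by a margin of 0.33 on the log2 scale between the nearest arrays. The difference was -0.44 ± 0.19 (adjusted p = 0.236), with a 95% interval of -0.97 to 0.09. Parental KRT5 stood at 85.1% and 82.4% of the highest intensity of its array, and what closeness to the top of the intensity range contributes to this small difference was not tested. KRT5 did not pass with a prior variance that follows intensity (adjusted p = 0.0658) but did with the robust form of that prior (adjusted p = 0.0236), settings that called 11.5% and 12.2% of named genes lower.

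**Figure D2:**
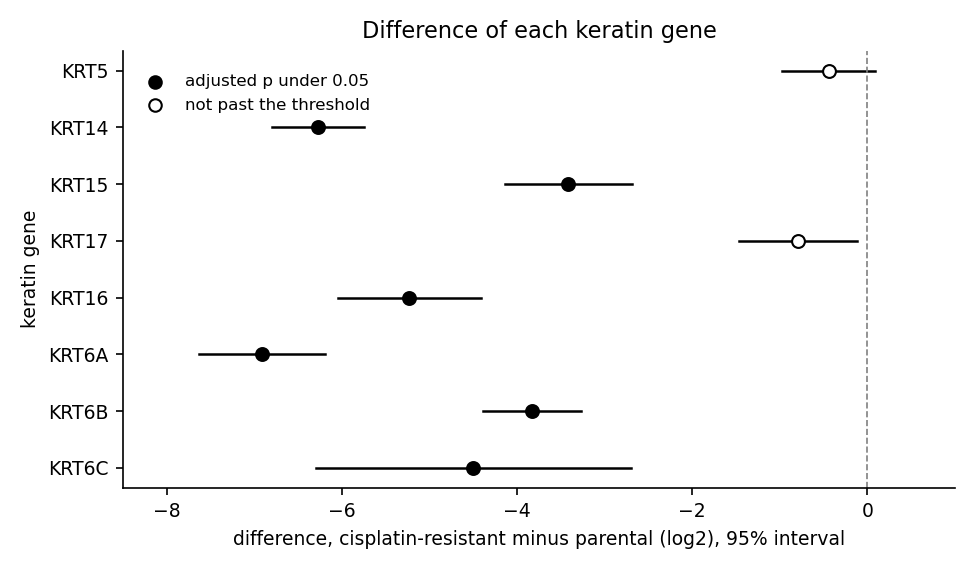
Log2 difference (resistant minus parental) of each keratin with limma's 95% confidence interval; filled points passed the test over all named genes. The 6 filled points lie between -6.91 and -3.42, and the open points are KRT5 at -0.44 and KRT17 at -0.79.

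Among the stress keratins, KRT6A, KRT6B, KRT6C and KRT16 fell and KRT17 did not pass. KRT6A, a type II keratin of wound-edge epidermis and oral mucosa, had intensities of 321.7 and 226.8 in the resistant arrays, against 30909.2 and 34237.7 in the parental arrays. The resistant values lay at percentiles 64.5 and 58.2 of all rows, against 99.3 and 99.5 in the parental arrays. The log2 difference of -6.91 ± 0.26 (adjusted p = 0.0165) was the largest of the 8 keratins and ranked 7 among the named genes.

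KRT6B, its close relative, had intensities of 1243.9 and 1487.7 in the resistant arrays and 19717.5 and 19063.6 in the parental arrays. The resistant arrays again sat together, far under the parental ones, but the fall was smaller than that of KRT6A, with a log2 difference of -3.83 ± 0.20 (adjusted p = 0.0165). The 95% interval of KRT6B, -4.39 to -3.28, does not reach that of KRT6A, -7.63 to -6.19. That difference between the 2 genes was not itself tested.

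KRT6C, the third copy of the subfamily, gave a dim row. It had intensities of 27.6 and 19.0 in the resistant arrays, against 917.7 and 293.1 in the parental arrays. The parental arrays disagreed by 1.65 on the log2 scale, the widest gap between replicates among the 8 genes, yet both stood above both resistant arrays. The difference of -4.50 ± 0.64 (adjusted p = 0.0458) had the largest error, with a 95% interval of -6.30 to -2.70. The resistant values lay at percentiles 10.6 and 3.6 of all rows, so the nominal fold of 22.7 is uncertain. The difference was -3.33 with an offset of 32 before log2, -3.68 without parental replicate 1 and -5.33 without parental replicate 2.

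KRT16, a type I keratin that pairs with the KRT6 proteins, had intensities of 698.8 and 879.2 in the resistant arrays, against 24244.8 and 35767.9 in the parental arrays. The parental replicates differed by 0.56 on the log2 scale, a small part of the distance between groups. The difference was -5.23 ± 0.29 (adjusted p = 0.0165), and it ranked 25 among the named genes.

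KRT17, a type I keratin of hair follicles, wounds and many carcinomas, had intensities of 27582.3 and 19959.4 in the resistant arrays and 40845.6 and 40406.5 in the parental arrays. The resistant arrays were both lower and disagreed with each other by 0.47 on the log2 scale, while the parental arrays differed by 0.02. The difference was -0.79 ± 0.24 (adjusted p = 0.14), with a 95% interval of -1.47 to -0.11. KRT17 passed with the prior variance that follows intensity (adjusted p = 0.0135). With that prior it also passed without resistant replicate 1 (adjusted p = 0.00841), but not without resistant replicate 2 (0.1), parental replicate 1 (0.0689) or parental replicate 2 (0.0744). A transcribed pseudogene, KRT17P5, was the single keratin pseudogene with a named row, and it differed by 0.72 ± 0.19 (adjusted p = 0.114) at dim levels of 5.10 in the resistant and 4.38 in the parental arrays on the log2 scale.

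**Figure D3:**
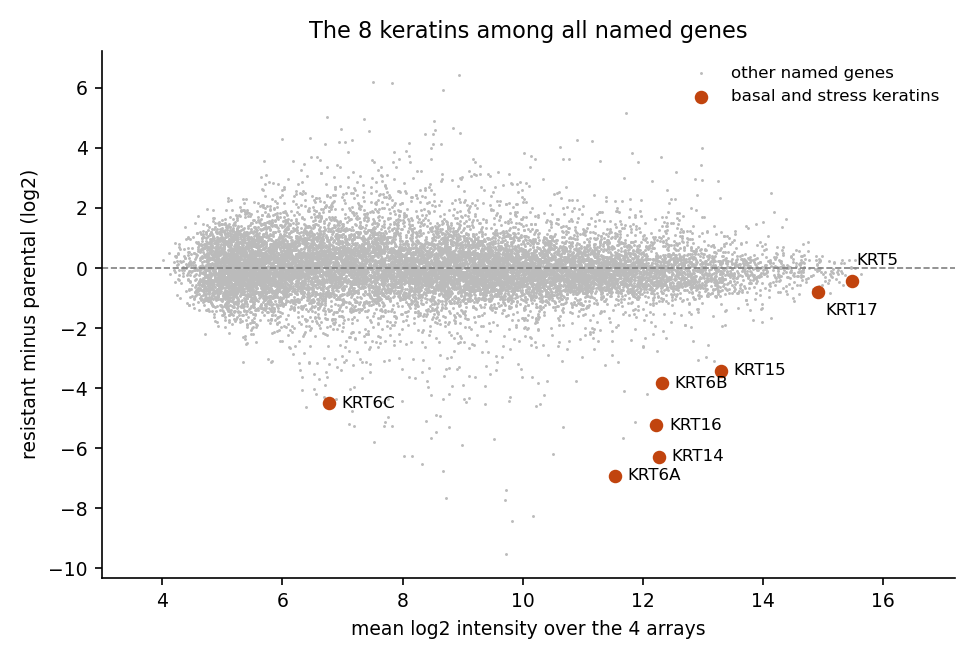
Difference (resistant minus parental, log2) against mean log2 intensity over the 4 arrays for the named genes, with the 8 keratins in orange. KRT6A, KRT14 and KRT16 lie below nearly all genes of like intensity, while KRT5 and KRT17 sit at the right end near 0.

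The differences were uneven among filament partners. Since 2 genes cannot be compared by level, the log2 value of one was subtracted from that of the other on each array, and the shift of this quantity between groups shows unequal change. KRT14 minus KRT5 was -6.11 and -6.14 in the resistant arrays, against -0.30 and -0.28 in the parental arrays. The shift of -5.84 was many times the spread within either group.

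Among the stress keratins, KRT16 minus KRT6A was 1.12 and 1.96 in the resistant arrays, against -0.35 and 0.06 in the parental arrays, a shift of 1.68. The resistant arrays lay above the parental ones, though the replicates of this quantity also disagreed. KRT15 minus KRT5 shifted by -2.98, KRT6A minus KRT5 by -6.47 and KRT14 minus KRT17 by -5.48, with the groups apart in each case. KRT17 minus KRT5 averaged -0.75 ± 0.48 in the resistant arrays and -0.40 ± 0.02 in the parental arrays (SD, n = 2 each), a shift of -0.35 that is smaller than the spread of the resistant arrays. It was -0.69 without resistant replicate 1 and -0.02 without resistant replicate 2. Across these 6 pairs the exact two-sided permutation test gave p = 0.33 for each, before and after adjustment, which is the smallest p that 2 against 2 arrays allow.

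**Figure D4:**
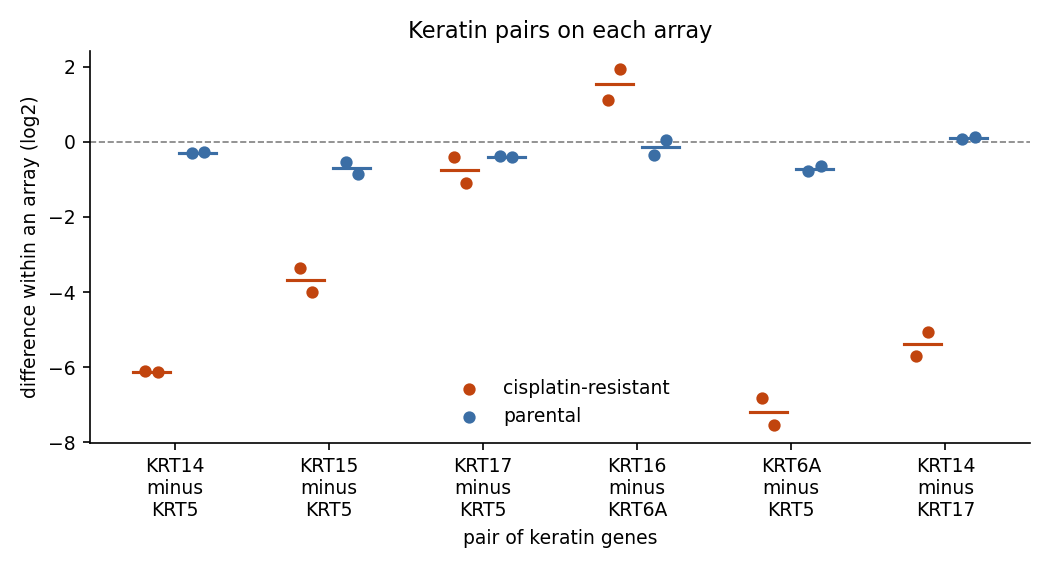
Log2 difference between 2 keratin genes on the same array for 6 pairs, with resistant arrays on the left and parental arrays on the right of each pair and bars at the means. The groups are far apart for the 4 pairs that set KRT14, KRT15 or KRT6A against KRT5 or KRT17, closer for KRT16 minus KRT6A, and nearly touch for KRT17 minus KRT5.

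The type II members lie side by side on chromosome 12 in the order KRT6B, KRT6C, KRT6A and KRT5, with 0 other genes of the RefSeq table between them. KRT6A and KRT5 are therefore immediate neighbours, with log2 differences of -6.91 and -0.44. On chromosome 17 the type I members run from KRT15 through KRT14 and KRT16 to KRT17. Of the 2 other measured genes in that stretch, KRT9 fell by 3.89 ± 0.41 and KRT19 differed by -0.85 ± 0.19 (adjusted p = 0.0856). Across the whole keratin cluster of chromosome 12, 2 of 22 other measured genes fell, 2 rose and 18 did not pass. Across that of chromosome 17, 3 of 25 fell, 0 rose and 22 did not pass. The shares over all named genes were 2.83% lower and 3.26% higher.

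Of 37 other measured keratin genes, 5 fell, 2 rose and 30 did not pass, with a median difference of -0.39. By the same test 2.83% of all named genes were lower and 3.26% higher. Among the type I genes 3 of 17 fell and 0 rose, and among the type II genes 2 of 20 fell and 2 rose. The falls included suprabasal keratins of mucosa and epidermis. KRT4 fell by 7.64 ± 0.31 and its mucosal partner KRT13 by 5.30 ± 0.22 (-5.42 in its other row). KRT1, an early marker of epidermal differentiation, differed by -8.41 ± 0.85 (adjusted p = 0.0287), with log2 values of 6.78 and 4.47 in the resistant arrays and 14.08 and 13.98 in the parental arrays. KRT23 fell by 2.27 ± 0.19, and KRT31, a hair keratin, differed by -2.37 ± 0.50 (adjusted p = 0.0793). Adjusted p-values of the 5 other keratins that fell lay between 0.0165 and 0.0295.

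The 2 keratins that rose were both type II. KRT81, a hair keratin also seen in carcinomas, rose by 3.73 ± 0.30, with log2 values of 11.98 and 12.02 in the resistant arrays and 8.61 and 7.94 in the parental arrays. KRT80, an epithelial keratin whose expression is broader, rose by 2.43 ± 0.18 (2.44 in its other row). The simple-epithelium pair did not pass: KRT8 differed by 1.06 ± 0.30 (adjusted p = 0.123) and KRT18 by 0.69 ± 0.21 (adjusted p = 0.136), although both passed with the prior variance that follows intensity (adjusted p = 0.00798 and 0.0118), which called 9.93% of named genes higher.

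**Figure D5:**
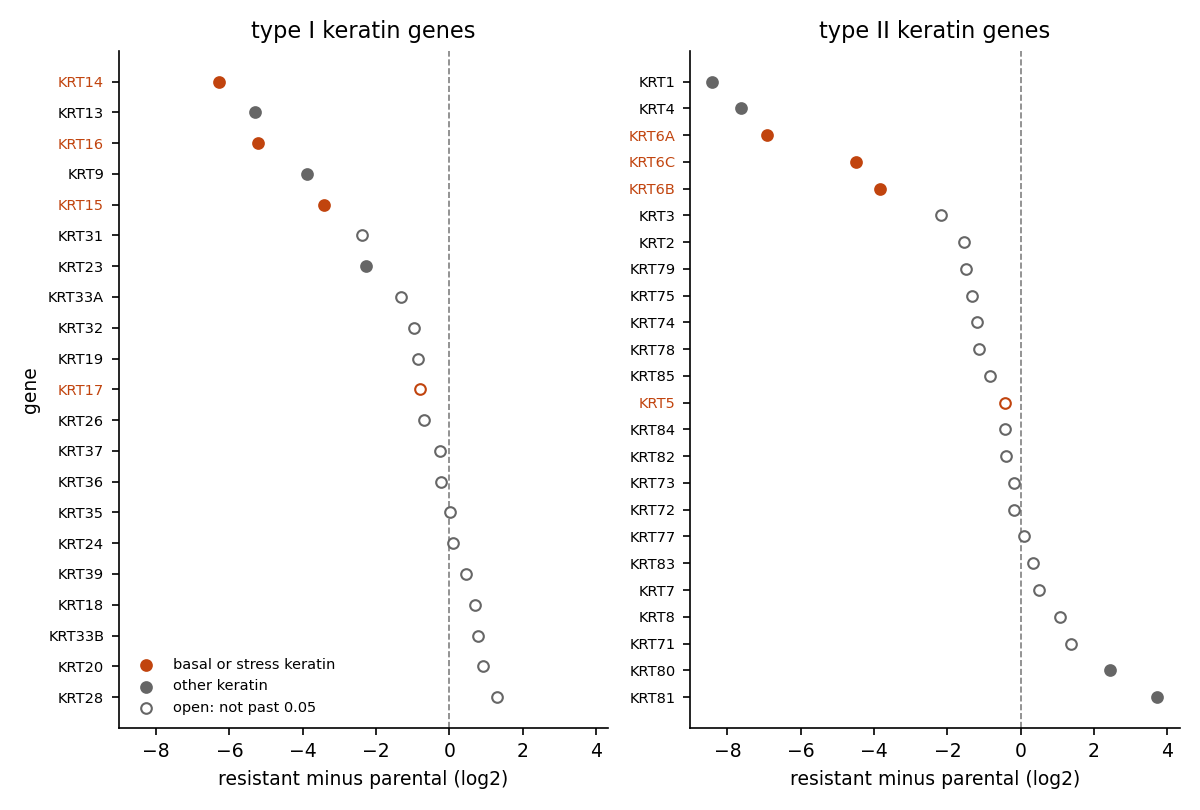
Log2 difference (resistant minus parental) of every measured keratin gene, type I on the left and type II on the right, sorted from the most negative at the top; orange marks the basal and stress keratins and filled points passed the test. KRT1 and KRT4 lie further to the left than KRT6A, and KRT80 and KRT81 are the filled points on the right.

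Of 26 measured transcription factors known to act on basal or stress keratin genes, 6 fell, 1 rose and 19 did not pass. Their median difference was -0.23. Among all named genes 2.83% were lower and 3.26% higher. TP63, the p63 factor that drives basal keratin genes, fell by 2.77 ± 0.24 in its brightest row, and its other 3 rows lay between -2.81 and -2.62. CEBPA, a factor of squamous differentiation, fell by 3.37 ± 0.19. RARG, a retinoic acid receptor of epidermis, fell by 2.05 ± 0.20 (-1.50 in its other row). JUN, a subunit of AP-1, rose by 2.41 ± 0.18. Adjusted p-values of these 4 genes lay between 0.0165 and 0.0266.

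Of 19 measured ligands and receptors known to induce stress keratins, 4 rose, 3 fell and 12 did not pass, with a median difference of 0.08. Among all named genes 3.26% were higher and 2.83% lower. The cytokine genes TNF and IL6 each rose by 3.64 ± 0.18, and IL1A, which activates keratinocytes after wounding, rose by 1.57 ± 0.19. IL36G, an epithelial cytokine of the same family as IL1A, fell by 1.83 ± 0.19. The largest adjusted p of these 4 genes was 0.035.

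Of 22 measured genes for filament linkers and keratin-binding proteins, 12 fell, 0 rose and 10 did not pass, with a median difference of -1.91. Among all named genes 2.83% were lower and 3.26% higher. PKP1, which encodes the desmosomal plaque protein plakophilin 1, fell by 6.52 ± 0.22. DSP, which encodes desmoplakin and ties keratin filaments to desmosomes, fell by 3.11 ± 0.18 (-3.54 in its other row). DSC3, a desmosomal cadherin of basal cells, fell by 3.61 ± 0.21. EPPK1, which encodes the keratin-binding plakin epiplakin, fell by 2.93 ± 0.20, and the largest adjusted p of these 4 genes was 0.0171.

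The markers listed for basal squamous epithelium were KRT5, KRT14, KRT15, TP63, ITGA6 and COL17A1, and apart from KRT5 all of them fell in the resistant cells. The keratins and TP63 are those described above, so this list is not a separate test. ITGA6 and COL17A1 belong to the 22 measured linkers, of which 12 fell and 10 did not pass. They were picked once their values were known, and 2.83% of all named genes were lower. TP63 stood at log2 values of 11.07 and 10.63 in the resistant arrays and 13.57 and 13.66 in the parental arrays, and ITGA6, the integrin of hemidesmosomes, fell by 1.89 ± 0.23. COL17A1, a hemidesmosome collagen, had log2 values of 11.14 and 11.32 in the resistant arrays and 13.64 and 13.48 in the parental arrays. Of 13 leukocyte markers and 6 markers of melanocytes and Merkel cells, 0 passed with limma, while 2.83% of named genes were lower and 3.26% higher. At such shares few calls are due in lists this short, so the count says little about these cells. The 13 leukocyte markers include HBB, a globin gene rather than a leukocyte gene, and so does their sum below. LCP1, a leukocyte marker, differed by 1.27 ± 0.22 (adjusted p = 0.058) and passed with the prior variance that follows intensity (adjusted p = 0.00287). The summed intensity of the leukocyte markers was 5355 and 5096 in the resistant arrays and 5530 and 4756 in the parental arrays. The sum over the melanocyte and Merkel cell markers was 963 and 915 in the resistant arrays, against 1089 and 1044 in the parental arrays.

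Of 8 measured fibroblast markers COL1A1 rose and 7 did not pass, with summed intensities of 2231 and 1865 in the resistant arrays and 533 and 489 in the parental arrays. COL1A1 alone made up 1846.0 and 1546.0 of the sums in the resistant arrays, against 210.7 and 153.2 in the parental arrays. Of 6 endothelial markers CDH5 rose and 5 did not pass, with sums of 856 and 1032 in the resistant arrays, against 311 and 334 in the parental arrays. CDH5 alone made up 559.1 and 666.8 of them in the resistant arrays, against 14.3 and 24.7 in the parental arrays. Of 13 markers of simple epithelium, 5 of them keratins, CLDN3 rose, AGR2 fell and 11 did not pass, with sums of 77272 and 80332 in the resistant arrays and 49466 and 45429 in the parental arrays. KRT8, which did not pass, made up 26438.5 and 23785.2 of the resistant sums and 15103.4 and 9610.3 of the parental sums. KRT18, which also did not pass, made up 24953.5 and 27710.3 of the resistant sums and 14880.9 and 17889.8 of the parental sums. The part of these other markers in the keratin differences was not tested. For these lists too, the shares over all named genes were 2.83% lower and 3.26% higher.

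Genes of the most similar pattern were found by the root mean square distance between log2 values centred on the parental mean, over the 4 arrays. Because the arrays form 2 groups, this measure mainly matches the size of the difference. Nearest to KRT14 were PI3, the protease inhibitor elafin, at a distance of 0.129, PKP1 at 0.210 and the kallikrein gene KLK11 at 0.285. Nearest to KRT16 were KRTDAP, a keratinocyte differentiation protein, at 0.139, the connexin gene GJB6 at 0.162 and FGFBP1, a carrier of fibroblast growth factors, at 0.237.

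KRT6B lay closest to CRIP2 at 0.094, and next to the squamous serpin genes SERPINB4 at 0.117 and SERPINB3 at 0.121. KRT6C lay closest to SPRR2B, a cornified envelope protein, at 0.419, SERPINB2 at 0.480 and BMP7 at 0.546. KRT6A lay closest to PKP1 at 0.356, LY6D at 0.452 and H19 at 0.481, distances of the same order as those of KRT6C. KRT15 was nearest to SORCS2 at 0.093, LPAR3 at 0.122 and VSNL1 at 0.143. KRT5 and KRT17, whose differences are common in size, had matches within 0.023, namely BNIP1, TOMM70 and KRT84 for KRT5 and CLDN10, HSPBP1 and TRAFD1 for KRT17.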

How the data were processed

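Total RNA of 2 cisplatin-resistant and 2 parental CAL-27 cultures was measured. Per the labels' protocols, cDNA was primed with oligo-dT and labelled with Cy3 on both strands, so sense and antisense transcripts cannot be told apart. The deposited values are normalized intensity values on a linear scale. RMA is the one tool that the submitters' processing notes name. A version, a filter on rows and a genome build are not stated there. Intensities were taken to log2. Genes were named by the platform's symbols for 17899 rows and by RefSeq accession for a further 674, and the row with the highest mean stood for a gene. The test was limma 3.58.1 under R 4.3.3, with lmFit and eBayes, a constant prior variance and no covariates, two-sided and adjusted over 15073 genes with a threshold of 0.05. Tables and exact tests were computed in Python 3.11.15. The fit was tested on simulated data, where it called 44 of 50 genes with a true log2 change of -6. It called 26 of 50 at -4, 1 of 50 at -2 and 0 of 50 at -1. With the prior variance that follows intensity these counts were 50, 49, 30 and 14. With the constant prior variance, changes as small as the differences of KRT5 and KRT17 were thus hardly detectable there. The changed genes were drawn at random over all intensities, so these counts do not apply directly to rows as bright as KRT5 and KRT17. A gene that did not pass is not shown to be unchanged. The keratins and gene lists were chosen with earlier results of these data known. Named genes are the 8 keratins, up to 4 per list with the smallest p, and the 3 nearest in pattern to each keratin. KRT8, KRT18, KRT19, ITGA6 and COL17A1 fall outside that rule; they were picked once their values were known. The alternatives tried were other prior variances, scalings, an offset, a filter on dim genes, other uses of rows, an unmoderated test, a replicate block and leaving out each array. Protein sequences were not used here.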

Additional observations from a re-analysis of the deposited data

How the results depend on the processing

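Over 19 alternative settings, 151 fits of a single keratin were made, and the difference was below 0 in each. That sign could hardly change. Other priors, a replicate block, the unmoderated test and other uses of rows leave the difference as it is. Leaving out 1 array cannot turn it where both resistant arrays lie below both parental arrays, as in all 8 keratins. In 103 of the 151 fits the call stayed where it was. The count of 6 lower keratins was 6 with median centring, quantile normalization, an offset of 32 before log2 and the mean of all rows. These alternatives called 3.01% to 5.65% of named genes lower. The count was 7 with a prior variance that follows intensity, which called 11.5% of named genes lower and 9.93% higher. The robust form of that prior, added after the data had been seen, gave 8 and called 12.2% of named genes lower. A filter on dim genes also gave 6, with KRT6C removed and KRT17 passing (adjusted p = 0.022), and it called 21.7% of the 7537 genes it kept lower. The count was 0 when all rows were tested together, 0 with the unmoderated test (5 at an unadjusted p under 0.05) and 0 with a replicate block (1 degree of freedom remains). Those settings called 0% of all genes or rows in either direction, as did leaving out 1 array with the constant prior. The labels share replicate numbers but do not say that they mark a shared batch, and the deviations of same-numbered arrays correlated at 0.142 over genes. The block together with the intensity prior gave 7 and called 12.4% of named genes lower. Leaving out 1 array assumes, with either prior, that the lone array varies like the other group. With the intensity prior it gave 6 to 7, among 7.28% to 9.56% of named genes called lower. Among single rows tested over all rows, 0 passed with the constant prior and 6 with the intensity prior. The offset gave KRT6C a difference of -3.33 instead of -4.50, and leaving out 1 array moved it between -5.33 and -3.68. All 42 alternatives of the 6 pairs kept their direction, which leaving out 1 array could not turn, since the groups were apart in each pair. KRT17 minus KRT5 was -0.02 without cisplatin-resistant replicate 2. With quantile normalization its shift was -0.31 and its groups overlapped. With the intensity prior, 9 listed transcription factors were lower and 5 higher, 4 ligands and receptors lower and 5 higher, 18 linkers lower and 1 higher, 7 other keratins lower and 4 higher, and 1 simple-epithelium marker lower and 7 higher. It called 1 of 13 leukocyte, 1 of 8 fibroblast and 1 of 6 endothelial markers higher. These list counts stand beside the 11.5% of all named genes that it called lower and the 9.93% that it called higher.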
